A study of Drosophila melanogaster with 3 samples.

Results

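The genes described here are 10 components of the Decapentaplegic (Dpp) pathway, dpp, gbb, tkv, sax, put, Mad, Med, brk, shn and Dad, out of 13968 protein-coding genes of the annotation. They were taken by symbol, as the core components of the pathway. Dpp is a secreted ligand of the bone morphogenetic protein (BMP) family; it binds receptors of type I and type II, and the activated type I receptor phosphorylates the transcription factor Mad. Phosphorylated Mad enters the nucleus with its partner Med, and together with the zinc finger protein Shn it silences brk, whose product represses many Dpp targets. In the early fly embryo the pathway patterns the dorsal side, and later it acts in mesoderm, gut, trachea and the primordia of the adult appendages.

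Chromatin immunoprecipitation followed by sequencing (ChIP-seq) had been carried out on whole Drosophila melanogaster embryos, both sexes together, aged 0 to 18 h, from a transgenic line in which green fluorescent protein (GFP) was joined to the C-terminus of the CG12219 protein. There were 3 biological replicates of this 1 group and no other condition, and no mock precipitation or untagged line entered the comparison. A free-text line in the labels calls every sample an input control, against the assay title, the antibody field and the deposited peak lists; the samples were treated as immunoprecipitations. In whole embryos the cells that hold a peak, and the time at which they hold it, cannot be told apart, and the depth of the libraries is unknown.

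A peak is given here by its summit, the base of highest signal in the deposited interval, and by its rank in signal within its list, with 1 the highest. The main list is the 4187 peaks kept by the irreproducible discovery rate (IDR), a measure of how alike replicates rank the same peak; the IDR peaks are the top 4187 of the 30000 calls made on all 3 replicates pooled. Each replicate has its own 30000 calls, which include background, so only its top 4187 were counted as peaks and are called its top calls. A gene was credited with a summit that lay within 500 bp of one of its transcription start sites (TSS), inside the gene, or nearer to its TSS than to that of any other gene. Signal is in the authors' own units, and coordinates are in dm6 with genes from Ensembl (BDGP6.54).

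By these 3 rules together 7 of the 10 genes held an IDR peak: dpp, tkv, put, Mad, brk, shn and Dad. Among all protein-coding genes the share was 22.3%. For gbb, sax and Med the IDR list held none. The 7 genes held 27 peaks, 13 of them in shn. Of the 10 genes, 3 (tkv, shn and Dad) had a summit within 500 bp of a TSS, against 14.3% of all protein-coding genes, 6 had one inside the gene, against 11.9%, and 7 had one nearest to their TSS, against 17.6%. The first of these counts depended on the window and the list: within 1000 bp of a TSS it was 5 of 10, against 17.3% of protein-coding genes, and in the 2093 IDR peaks of higher signal it was 1, against 7.84%.

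Gene length goes with these counts. The 5 longest members, dpp, tkv, Mad, shn and Dad, at 13.6 to 58.3 kb, all held a summit inside, as did 45.0% of protein-coding genes of at least 10 kb. Of the 5 members under 10 kb only put did, against 6.42% of genes of that class, and of all protein-coding genes at least as long as gbb, the shortest member, 18.2% held one. The members' bodies held 24 summits in 192 kb, or 12.5 per 100 kb, against 2718 in 91.0 Mb, or 2.99 per 100 kb, for all protein-coding gene bodies merged. Without shn the members had 11 in 133 kb, or 8.25 per 100 kb.

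**Figure D1:**
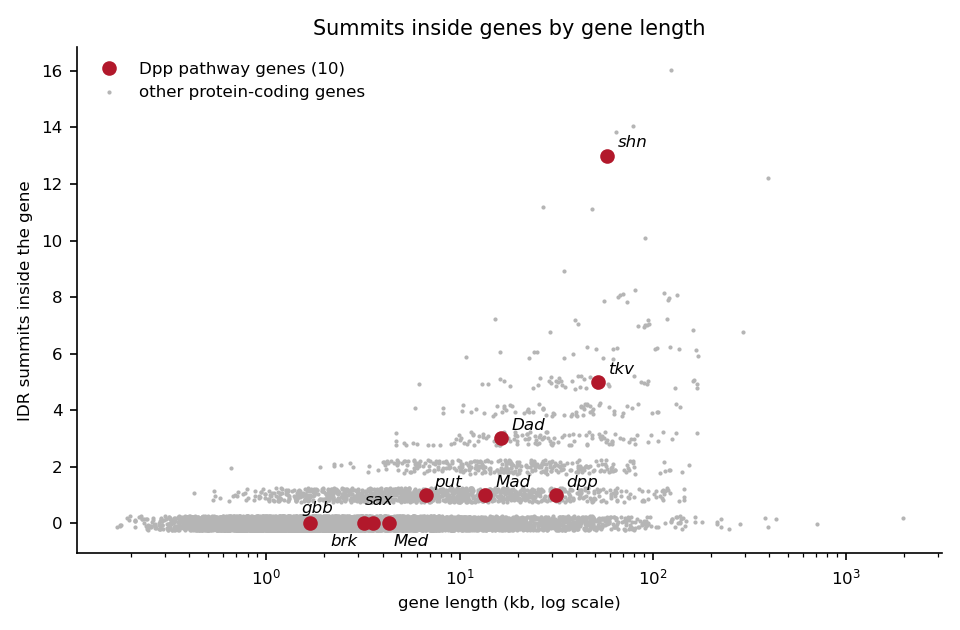
IDR summits inside each protein-coding gene (vertical axis) against gene length in kb (horizontal axis, log scale), with the 10 Dpp pathway genes in red and the other protein-coding genes as grey dots, spread slightly in height so that they can be seen. shn holds 13 summits and tkv 5, Dad holds 3, dpp, put and Mad hold 1 each, and the other 4 members lie at 0.

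The 3 replicates were then counted apart. Of the 10 genes, 6 had a top call in replicate 1, against 22.0% of protein-coding genes, 7 in replicate 2, against 22.3%, and 7 in replicate 3, against 22.3%; put was the gene missing from replicate 1. When a peak had to have a counterpart within 250 bp among the top calls of all 3 replicates, 6 members kept one (dpp, tkv, Mad, brk, shn and Dad), against 15.1% of protein-coding genes. By peak, 16 of the 27, or 59.3%, met that condition, which is close to the 60.0% of all IDR peaks; for 3 of the 16, at ranks 2556 in tkv and 2698 and 3856 in shn, a counterpart lay more than 100 bp away. All 9 member peaks in the top 1000 of the IDR list met it, as did 98.8% of that top 1000, while of the 18 member peaks below rank 1000 only 7 did, against 47.8% of all IDR peaks below it.

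**Figure D2:**
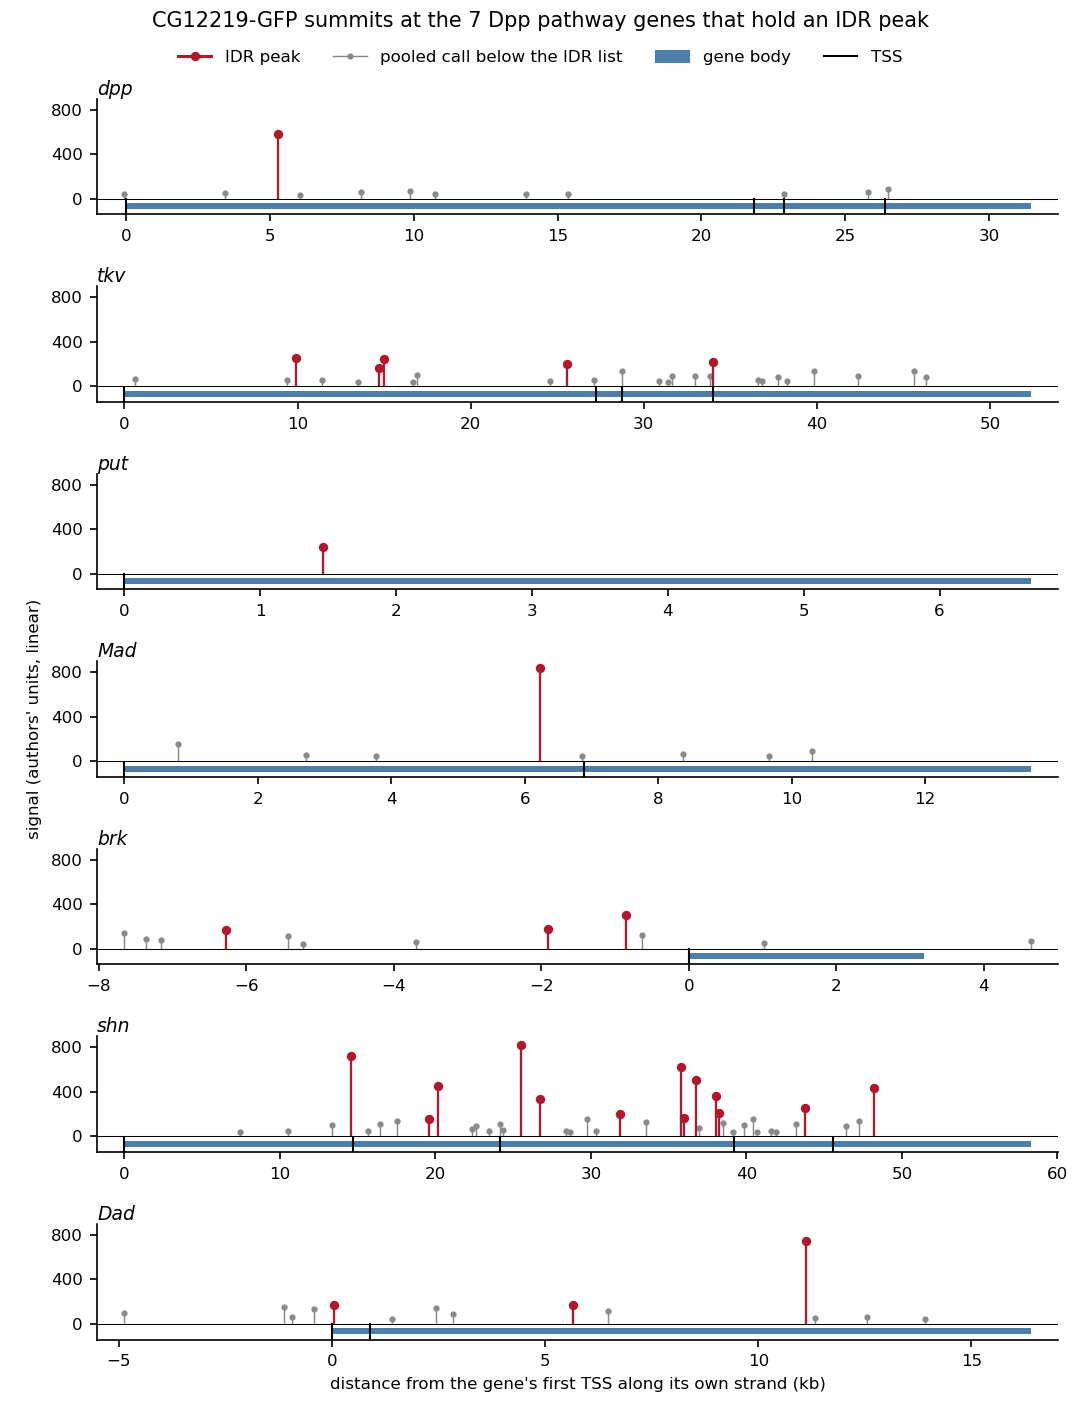
Signal of each summit (vertical axis, the authors' units, linear) along the 7 members that hold an IDR peak, by distance in kb from the first TSS on the gene's own strand (horizontal axis, its own scale in each panel); IDR peaks are red, pooled calls below the IDR list grey, gene bodies blue bars and TSS black ticks. Mad, dpp and Dad each carry 1 tall summit inside the gene, shn carries a series of 13, and the summits of brk lie upstream of it.

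The ligands differed. dpp (FBgn0000490, chr2L:2428372-2459823, plus strand, 31.5 kb, 4 TSS) encodes the ligand that names the pathway, and it held 1 IDR peak, with a signal of 582 at rank 574. The summit lay in an intron, 5276 bp downstream of the first TSS, and its ranks were 865, 734 and 338 in replicates 1, 2 and 3, so all 3 placed it in their top 1000. The nearest calls in the replicates lay within 3 bp of that summit. The 4 TSS of dpp themselves carried no IDR summit within 500 bp; pooled calls lay near 3 of them, at ranks 22715, 26944 and 8875, far down the list. Another IDR peak, at rank 1978, lay 1721 bp upstream of the first TSS, but it was nearer to the TSS of lncRNA:CR44912 and was not credited to dpp.

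The sequence around the dpp summit is shown because it is the only IDR peak of the ligand gene. It is 201 bp of the RefSeq genome (dm6), plus strand, chr2L:2433548-2433748, with the 21 bp centred on the summit in capitals.
dpp intron: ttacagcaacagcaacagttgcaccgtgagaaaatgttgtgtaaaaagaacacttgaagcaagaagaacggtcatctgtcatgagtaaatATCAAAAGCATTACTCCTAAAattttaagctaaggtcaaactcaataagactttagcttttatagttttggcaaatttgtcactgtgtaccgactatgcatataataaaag
It was 67.3% A+T within 50 bp of the summit, and none of the 12 motifs searched for below occurred in it.

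gbb (FBgn0024234, chr2R:23851562-23853247, plus strand, 1.69 kb, 1 TSS) encodes another BMP ligand, which can form dimers with Dpp. It held no IDR peak and no pooled call by any of the rules. Replicate 1 had no call there either, and the best calls of replicates 2 and 3 stood at ranks 9032 and 17985, among the background calls. The nearest pooled call, at rank 10848, lay 546 bp upstream of the TSS, just outside the 500 bp window. A strong IDR peak was close by: rank 48, with replicate ranks 24, 77 and 37, lay 1164 bp upstream of gbb, at the TSS of asRNA:CR45928 and eIF6, a gene for a ribosome assembly factor, and within ytr.

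Of the receptor genes, only the long tkv had a peak at a TSS. tkv (FBgn0003716, chr2L:5219000-5271384, minus strand, 52.4 kb, 4 TSS) encodes the main type I receptor for Dpp and held 5 IDR peaks, between ranks 2134 and 3951. The 1 at a TSS lay 16 bp upstream of the start site nearest the 3' end of the gene, at rank 2556, with ranks 1943, 3319 and 3871 in the 3 replicates. The call at 1943 in replicate 1 lay 185 bp from the summit and 16 bp from that of a weaker pooled call at rank 8660, so that rank belongs rather to the neighbour. The counterparts in replicates 2 and 3 lay within 50 bp and were top calls.

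The other 4 tkv summits were intronic. The highest, at rank 2134, lay 9940 bp into the gene and ranked 4330, 1786 and 3293 in replicates 1, 2 and 3, so it fell just short of the top calls of replicate 1. A pair of summits 252 bp apart, at ranks 2250 and 3951, was ranked 2099, 3570 and 6131, and 2018, 6785 and 4312. The last, at rank 2976, lay 1654 bp upstream of an inner TSS and ranked 2321, 3454 and 2762. In all, 2 of the 5 were top calls of every replicate, the peak at the TSS included by that neighbouring call, and none was in the top 1000 of the IDR list. With 5 summits inside, tkv was passed by 51 protein-coding genes; in the 313 protein-coding genes of 50 kb or more the median number was 1, with quartiles 0 and 3.

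sax (FBgn0003317, chr2R:7806484-7810067, plus strand, 3.58 kb, 2 TSS) encodes another type I receptor, which takes part in signalling by Gbb. It held no IDR peak. Its best pooled call stood at rank 7573, 473 bp from a TSS, and the replicates placed it at 5316, 19947 and 21346, which is below the top calls in all 3. The closest IDR peak, at rank 1678, lay 2340 bp past the gene, at the TSS of puml and TTLL12.

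put (FBgn0003169, chr3R:14619030-14625703, minus strand, 6.67 kb, 1 TSS) encodes a type II receptor and was the only short member with a summit inside. That peak, at rank 2274 with a signal of 240, lay in an intron 1459 bp downstream of the TSS. The replicates did not rank it alike: it stood at 6713, 1744 and 4042 in replicates 1, 2 and 3, and so was a top call of replicates 2 and 3 only. It was also the only pooled call that put held.

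Of the nuclear transducers, Mad carried the strongest peak of the whole group. Mad (FBgn0011648, chr2L:3146056-3159643, minus strand, 13.6 kb, 2 TSS) encodes the Smad that is phosphorylated by the receptor. Its peak had a signal of 840 and rank 273, and ranks of 204, 425 and 187 in the 3 replicates, all near the head of the lists. The summit lay in an intron, 667 bp upstream of the inner TSS, just outside the 500 bp window, and 6223 bp downstream of the first TSS. The first pooled call of any member below the IDR list was also in Mad, at rank 4284 and 808 bp into the gene, with replicate ranks 5392, 2504 and 17441.

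The window around the Mad summit is shown as the strongest site found at these genes. It is chr2L:3153320-3153520 of the RefSeq genome (dm6), given on the plus strand, against the direction of Mad, with the 21 bp centred on the summit in capitals.
Mad intron: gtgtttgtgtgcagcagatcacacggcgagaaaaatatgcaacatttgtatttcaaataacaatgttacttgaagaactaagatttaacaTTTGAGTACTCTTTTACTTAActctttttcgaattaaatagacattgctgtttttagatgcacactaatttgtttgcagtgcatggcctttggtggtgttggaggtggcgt
It was 74.3% A+T within 50 bp of the summit.

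Med (FBgn0288966, chr3R:31611046-31615375, plus strand, 4.33 kb, 1 TSS) encodes the Smad partner shared by BMP and activin signalling. It held no IDR peak. Its best pooled call, at rank 5649, lay 456 bp upstream of the TSS but nearer to that of CycG, and ranked 9335, 5405 and 9157 in the replicates. A far stronger peak lay beyond the gene's other end: rank 120, with replicate ranks 111, 167 and 73, was 803 bp past Med at the TSS of Mnat9 and CG1792. Of the 23 TSS of the 10 genes, 3 had an IDR summit within 500 bp, against 13.3% of the 19630 protein-coding TSS. With any pooled call counted, 14 of the 23 did, against 45.6% of protein-coding TSS.

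brk (FBgn0024250, chrX:7307939-7311132, plus strand, 3.19 kb, 1 TSS) encodes the repressor that the pathway silences. None of its peaks lay within the gene or at its TSS; all 3 lay upstream of it, in introns of CG1677 and lncRNA:CR44357, which enclose brk. CG1677 (chrX:7281089-7405797, minus strand, 125 kb) held 16 summits, more than any other protein-coding gene, and 3 of these were the peaks nearest to brk; only 1 of its 4 annotated transcripts spans brk.

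The highest of the brk peaks, at rank 1654 with a signal of 302, lay 849 bp upstream of the TSS. It ranked 2492, 1103 and 2165 in replicates 1, 2 and 3. The next, at rank 3442 and 1915 bp upstream, stood at 18926, 2571 and 3272. The third, at rank 3725 and 6275 bp upstream, had no call within 250 bp in replicate 1 and stood at 2179 and 4735 in replicates 2 and 3. So only the nearest of the 3 was a top call of all replicates, and replicate 1 held the other two weakly or not at all.

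The window of that nearest peak is shown since it is the only site upstream of brk that was a top call of every replicate. It is chrX:7306990-7307190 of the RefSeq genome (dm6), plus strand, with the 21 bp centred on the summit in capitals.
brk upstream: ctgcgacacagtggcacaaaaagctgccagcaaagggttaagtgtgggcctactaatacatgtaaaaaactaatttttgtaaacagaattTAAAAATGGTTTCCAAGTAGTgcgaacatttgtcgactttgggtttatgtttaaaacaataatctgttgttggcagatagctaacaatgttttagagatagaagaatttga
It was 74.3% A+T within 50 bp of the summit and held none of the motifs searched.

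The silencing of brk is known to act through a short element bound by Mad, Med and Shn, of 16 bp, with defined bases on either side of a spacer. Its consensus had 385 matches on the 7 chromosomes, both strands searched, and 8 of them lay within 10 kb of brk, 7 upstream and 1 downstream. Only brk and the enclosing CG1677 had as many, and 92.9% of protein-coding genes had none within 10 kb. The element is known from the silencing of brk, so its number of matches near brk is not a finding of these data. Near tkv and shn there was 1 match each, and near the other 7 members none.

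The 8 matches are shown to place the peaks against them, each read 5' to 3' on the strand that matches, from the RefSeq genome (dm6), with the defined positions in capitals and the distance from the brk TSS before each.
-8210 bp, chrX:7299721-7299736, plus strand: GACGaCagagtGTCTG
-8178 bp, chrX:7299753-7299768, plus strand: GGCGaCattctGTCTG
-8027 bp, chrX:7299904-7299919, minus strand: GACGtCgctctGTCTG
-7657 bp, chrX:7300274-7300289, minus strand: GGCGcCtctatGTCTG
-6631 bp, chrX:7301300-7301315, plus strand: GGCGtCcgctcGTCTG
-5179 bp, chrX:7302752-7302767, plus strand: GGCGgCcaaatGTCTG
-2169 bp, chrX:7305762-7305777, minus strand: GACGaCggactGTCTG
9528 bp, chrX:7317459-7317474, plus strand: GGCGcCaaacaGTCTG
None of the 8 lay within 100 bp of an IDR summit, and only 1 of all 385 matches did. The closest of the 8 were 254 bp from the peak at rank 3442 and 356 bp from the peak at rank 3725. With all pooled calls counted, 3 of the 8 matches had a summit within 100 bp, against 19 of all 385, or 4.94%. The closest of these calls, at rank 4772, just below the IDR list, had its summit 2 bp from the match 7657 bp upstream, and ranked 2902, 6006 and 6814 in the replicates, so it was a top call of replicate 1 alone. The other 2 stood at ranks 26404 and 4624. The 19 include these 3. brk was credited with 12 pooled calls in all, those at ranks 4772 and 26404 among them but not the one at rank 4624. The part of local call density in this count was not tested.

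**Figure D3:**
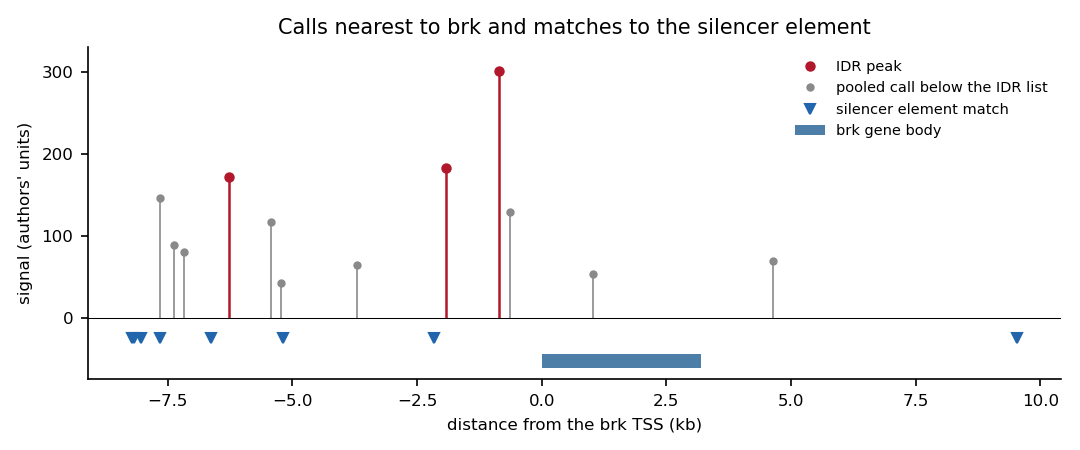
Signal of the pooled calls nearest to brk (vertical axis, the authors' units) by distance in kb from the brk TSS (horizontal axis), with the 3 IDR peaks in red, the other calls in grey, the 8 matches to the silencer element as blue triangles and the brk gene as a blue bar. The IDR summits stand 849, 1915 and 6275 bp upstream and none of them coincides with a match, while the call at rank 4772 does. Of all 385 matches only 1 lay within 100 bp of an IDR summit. The call at rank 4624, 87 bp from the match 9528 bp downstream, was not credited to brk and is not drawn.

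shn held most of the group's peaks. shn (FBgn0003396, chr2R:11159086-11217394, plus strand, 58.3 kb, 5 TSS) encodes the zinc finger cofactor that joins Mad and Med on the silencer element. It held 13 IDR summits, all in its introns and all nearer to a TSS of shn than to any other, and only CG1677, sbb and ush, with 16, 14 and 14, held more. Of the 13, 6 were in the top 1000 of the IDR list. They spanned 33.6 kb, with gaps of 209 to 5522 bp and a median gap of 2569 bp.

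The strongest shn peak, at rank 284 with a signal of 824, lay 1346 bp downstream of an inner TSS and ranked 415, 277 and 307 in the 3 replicates. The next, at rank 364, was the only one at a TSS, 178 bp upstream of a start site that lies 14717 bp into the gene, and ranked 366, 381 and 468. These 2 were ranked alike by all replicates. The others in the top 1000 stood at ranks 510, 717, 846 and 923, and the remaining 7 between 1220 and 4160.

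In each replicate 12 of the 13 shn peaks were top calls, though not the same 12, and 10 were top calls of all 3. Those 10 include the peaks at ranks 2698 and 3856, which met the condition in part through calls nearer to a neighbouring summit. For the peak at rank 2698 the replicate 1 call, at 2361, lay 187 bp away. That call is also the counterpart of a weaker pooled call at rank 6137. The widest disagreement was for the peak at rank 1220, which ranked 5235, 816 and 1321. The peak at rank 3856 lay 209 bp from the peak at rank 510, and in replicates 1 and 3 both were matched to the same call, so the ranks of 605 and 1100 given for each belong to the stronger neighbour; likewise the peaks at ranks 1220 and 2698 share the call at 1321 in replicate 3. The bases of the first pair differed widely: 33.7% A+T around the peak at rank 3856 and 76.2% around its neighbour, the lowest and nearly the highest of the 27.

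Dad (FBgn0020493, chr3R:17054007-17070408, plus strand, 16.4 kb, 2 TSS) encodes the inhibitory Smad, a target of the pathway that dampens it. It held 3 IDR peaks, of which 1 was far stronger than the others. That peak, at rank 344 with a signal of 747, lay in an intron 10237 bp downstream of the inner TSS. Its ranks were 442, 305 and 370 in replicates 1, 2 and 3. Within Dad but far from its TSS, it had the TSS of Ns1, 7541 bp away, as the nearest. The peak at the first TSS, 38 bp downstream and in the 5' UTR, stood at rank 3724 and ranked 1789, 5185 and 4301; an intronic peak at rank 3787 ranked 2107, 4766 and 7621. Both weaker peaks were top calls of replicate 1 only.

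The window of the strong Dad peak is shown as the strongest site at a gene of the feedback. It is chr3R:17065034-17065234 of the RefSeq genome (dm6), plus strand, with the 21 bp centred on the summit in capitals.
Dad intron: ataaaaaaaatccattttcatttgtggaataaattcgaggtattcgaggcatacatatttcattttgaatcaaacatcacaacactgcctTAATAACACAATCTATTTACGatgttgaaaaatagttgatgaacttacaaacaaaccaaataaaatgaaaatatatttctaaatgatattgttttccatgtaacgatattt
It was 73.3% A+T within 50 bp of the summit and held a run of A bases near its 5' end, but no other motif searched.

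**Figure D4:**
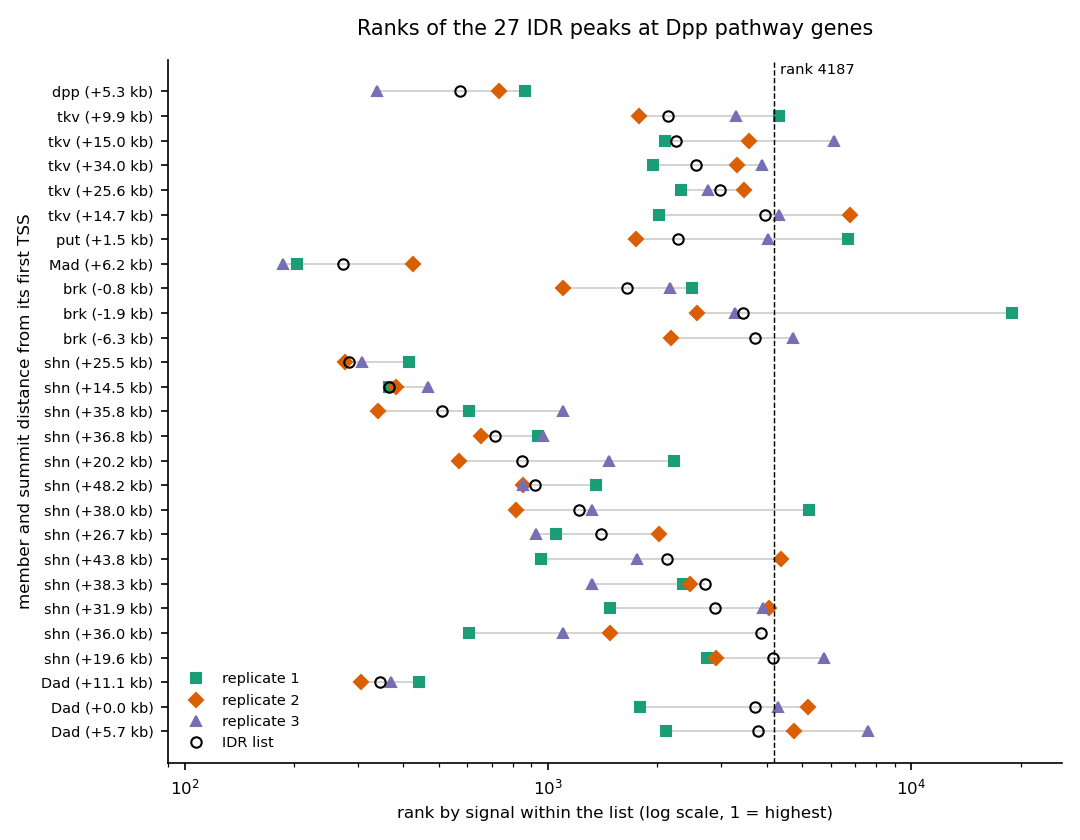
Rank by signal (horizontal axis, log scale, 1 the highest) of the 27 IDR peaks at Dpp pathway genes, in the IDR list (open circles) and in replicates 1, 2 and 3 (squares, diamonds, triangles), with the member and the summit's distance from the first TSS on the vertical axis and rank 4187, the bound of the top calls, dashed. The peaks of dpp, Mad and the strong peaks of shn and Dad keep to the left in every replicate, while the brk peak 1915 bp upstream reaches rank 18926 in replicate 1.

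By position, the 27 summits were mostly intronic: 23 lay in introns of the member, 1 in its 5' UTR and 3, those of brk, outside it. In a classing that puts a TSS of any gene within 500 bp first, 24 of the 27, or 88.9%, were intronic and 3, or 11.1%, were at a TSS, against 39.7% and 43.3% of all IDR peaks. The rule takes any summit inside a gene and so favours introns of long genes. Of the 23 summits inside members of at least 10 kb, 20, or 87.0%, were intronic, against 73.0% of the 1919 IDR summits inside protein-coding genes of that length. None of the 27 had a TSS of another gene within 500 bp. In signal they were spread over the list, with 12 of 27, or 44.4%, in its top 2093, 9, or 33.3%, in the top 1000, against 23.9% of all IDR peaks, and a median rank of 2134.

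The replicates differed in which member peaks they ranked higher, and A+T content moved with that. Of the 26 peaks with a call in both, 12 ranked higher in replicate 2 than in replicate 1, with a median A+T of 72.3% within 50 bp of the summit, and 14 ranked higher in replicate 1, with a median of 57.9%. Over all IDR peaks the medians were 69.3% for 2387 peaks and 60.4% for 1748. With counterparts limited to calls within 100 bp of the summit, a choice made after seeing the data, the medians at the members were 72.3% for 12 peaks and 58.4% for 11, against 69.3% for 2191 and 60.4% for 1658 of all IDR peaks. The part of base composition in these ranks was not tested. Over the 27 summits A+T ran from 33.7% to 77.2% with a median of 67.3%, against a median of 66.3% for all IDR summits.

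**Figure D5:**
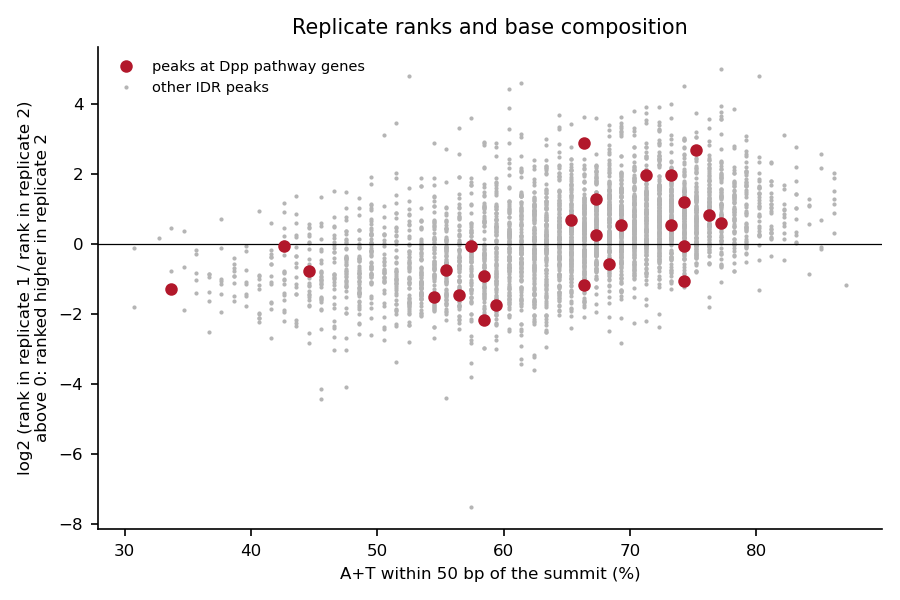
Log2 of the rank in replicate 1 over the rank in replicate 2 (vertical axis; above 0 the peak ranked higher in replicate 2) against A+T within 50 bp of the summit in percent (horizontal axis), for the 26 peaks at Dpp pathway genes with a call in both replicates (red) and the other IDR peaks (grey). The 12 red points above 0 have a median A+T of 72.3%, and the 14 below it 57.9%.

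Within 100 bp of the summit, 12 motifs were sought on both strands. The promoter motifs TATCGATA (the DRE) and GGTCACAC (M1BP) occurred in none of the 27 windows, against 0.180% and 0.300% of the intronic IDR windows, 1.67% and 1.39% of all IDR windows, and 6.44% and 5.68% of the 19275 promoter windows of that length. The Zelda motif CAGGTAG and the E-box CACGTG were absent as well, against 0.979% and 2.17% of all IDR windows. So were the elements tied to the pathway, the Smad palindrome GTCTAGAC, the GC-rich Mad site GCCGNCGC, the Brinker core GGCGCC and the silencer element. These 4 occurred in 0.0955%, 1.36%, 2.75% and 0.0239% of all IDR windows. At shares this low, absence from 27 windows says little about the members. The short Smad box CAGAC, which also lies within the silencer element, occurred in 5 windows, or 18.5%, all in shn, against 19.2% of intronic IDR windows, 17.1% of all IDR windows and 22.9% of promoter windows. GAGAGAG occurred in 3 (the peaks at a TSS of tkv and of shn, and the shn peak at rank 1403), against 3.79%, 5.13% and 4.68% of the same 3 kinds of window. The motif AGATAAG, bound by GATA factors, occurred in 1, the brk peak at rank 3725, against 3.25%, 3.20% and 2.66%. A run of 7 A or T bases, TTTTTTT on either strand, occurred in 3, or 11.1%, against 22.8%, 20.5% and 17.7%. With runs of A or T left out, 8 of the 27 windows held a motif, against 31.2% of all IDR windows. Within 50 bp of the summit 3 did, all with CAGAC, against 15.7%.

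The pathway genes also had calls below the IDR list. Of the pooled list's 117 calls at the 10 genes, 27 were in the IDR list and 90 were below it. Of all 30000 pooled calls 4187 were in the IDR list, a smaller share than at the members. Of these 90, shn had 27, tkv 22, dpp 11, Dad 11, brk 9, Mad 7, sax 2 and Med 1. With any rank counted, 7 of 10 members had a call within 500 bp of a TSS, against 44.8% of protein-coding genes, and 9 of 10 had a call by any rule, against 60.9%. These calls include background, and ranks at the boundary were close in signal: the last member peak inside the IDR list was that of shn at rank 4160, with a signal of 160, and the first outside it that of Mad at rank 4284, with 158.

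A wider list of 46 further genes of the pathway had 12 with a summit within 500 bp of a TSS, or 26.1%, and 19 by any rule, or 41.3%, beside the 14.3% and 22.3% of all protein-coding genes. The 5 other ligands, scw among them, had none by any rule. Of the 2 other receptors neither had one at a TSS, but wit held 2 inside the gene, the best at rank 496. Among Smads and cytoplasmic regulators 2 of 5 did: sgg, the kinase of Wnt signalling, with a peak at rank 88, and msk, an importin, at rank 3742, which is shared with Arp3. Among nuclear cofactors 2 of 3 did, the corepressor gro at rank 186 and the acetyltransferase nej at rank 3320.

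Of 11 extracellular modulators 4, or 36.4%, had a peak at a TSS, against 14.3% of protein-coding genes. magu, whose product helps BMP signals spread, had one at rank 221, and the BMP-binding cv-2 at rank 3396. The glypicans dlp and dally, which carry the ligand along the cell surface, had theirs at rank 2850, shared with RecQ5, and at rank 3361. Of 20 embryonic and later targets 4 did, or 20.0%, which is not far from that 14.3%. They include tin, the heart determinant, at rank 708, and ush, a partner of GATA factors, at rank 1891. The others were pnr, a GATA factor, at rank 3359, and rho, a protease of EGF signalling, at rank 3548. Of the 12 genes, only sgg, gro, magu, ush and tin had that peak among the top calls of all 3 replicates, against 60.0% of all IDR peaks. The peak at a TSS was not always the gene's strongest. By any rule the best peaks of ush, dlp, cv-2 and dally stood at ranks 6, 347, 693 and 894.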

How the data were processed

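ChIP-seq peak lists of 3 biological replicates of 1 group were used. The deposited listing names each replicate's alignment and a control as the source of its list, and all 3 replicates as the source of the pooled list. The signal of each call is the authors' deposited value, with no stated normalization, and was used only to rank calls within a list. The deposited −log10 q values broke ties in signal. The deposited summit offset gave each summit. Intervals are in dm6, per the labels. Not given in the sources used here are the caller, aligner and threshold of the IDR step. Depth is unknown, so no interval covers it.

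Summits were assigned to genes of Ensembl release 115 on 7 chromosomes, transposable elements left out, and sequence came from the RefSeq genome, with Python 3.11.15, numpy 2.4.6, pandas 2.3.3 and matplotlib 3.10.9. Assignment was tested on simulated data. Counts of members stand beside the same count over all protein-coding genes, with no test. Named are the 10 members with every IDR summit, the best pooled call of a member with none, further pathway genes with such a summit at a TSS (within 500 bp), and genes at or around these summits. Peaks just outside the rules and their genes, Ns1, sbb, scw and wit were chosen after their values were seen. The members and lists were chosen with earlier results of these data known. Other windows, stricter peak sets, replicates left out and shn left out were tried.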

Additional observations from a re-analysis of the deposited data

How the results depend on the processing

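Leaving out each replicate in turn, and rebuilding the list from the other 2, gave 2 to 3 members with a summit at a TSS (13.4 to 13.7% of protein-coding genes), 5 to 6 with one inside (11.4 to 11.7%), 6 to 7 with one nearest to their TSS (16.8 to 17.1%) and 6 to 7 by any rule (20.9 to 21.6%), beside 3, 6, 7 and 7; of the 27 peaks, 17 to 20 were then top calls of both remaining replicates, beside 16 of all 3. A distance of 100 bp for a shared call gave 13 of the 27, and 500 bp gave 17. Being a top call of 2 replicates is a looser condition than being one of all 3. The matching share of all IDR peaks was counted at the main setting only, where it was 60.0%. In the 2093 IDR peaks of higher signal, 1 member (shn) had a summit at a TSS, against 7.84% of protein-coding genes, and 4 had one nearest to their TSS, against 10.2%. Of the further genes, 5 of the 46 had one at a TSS, beside 12; fewer peaks were counted there. A window of 1000 bp gave 5 members at a TSS, against 17.3%. With 50 bp on each side of the summit, 3 of the 27 windows held a motif, beside 8, against 15.7% of all IDR windows. Without shn, a choice made after seeing the data, 14 peaks and 8.25 summits per 100 kb remained, beside 27 and 12.5. No paired analysis was possible because there is 1 group. The unknown depth and the lack of a mock immunoprecipitation limit what ranks near the end of the IDR list can show.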
